A study of Bos taurus with 42 samples.

Results

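Short 5′ tRNA fragments were described across bovine oocytes, embryos, blastocyst-derived cells and fibroblasts. The deposited table lists 12345 small RNA entries, each a set of reads that share up to 3 annotation names, and 907 of them are tRNA-derived. Members were the entries whose first name begins with the tag for a 5′ tRNA fragment and gives a tRNA without an Ensembl transcript number, which left 84 entries. A further 19 entries with an Ensembl-numbered name were not counted as members. Members are named here by amino acid and anticodon as the table writes them (SerTGA, GlyCCC), with a number by abundance where several entries share both. The 84 members carry 20 amino acid labels and 34 anticodon labels, with aspartate (10 entries), glycine (9), alanine, lysine and valine (8 each) the most frequent and serine represented by 3.

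Small RNA below 200 nucleotides had been sequenced on the Ion Proton from 42 libraries in 12 groups, which compare embryos made by in vitro fertilisation (IVF) with embryos made by nuclear transfer (NT). Oocytes (3 libraries) were matured in vitro to metaphase II. Fibroblasts (3 libraries) were primary cells from an ear biopsy of a single Brahma × Spanish cross bull. For NT a serum-starved fibroblast was fused with an enucleated oocyte, and the labels do not say whether the fibroblasts sequenced were serum-starved too. IVF used frozen semen of a single Holstein bull, and all embryos were cultured on bovine cumulus cells in medium with foetal serum. IVF and NT embryos were collected at the 2-cell (4 and 4 libraries), 8-cell (3 and 4), morula (4 and 3) and blastocyst (3 and 4) stages, in pools of 20. Collection was on day 2 for 2-cell embryos, day 3 for 8-cell embryos, day 6 for morulae and day 8 for blastocysts, in IVF and NT alike. Blastocyst-derived cells, from IVF (4 libraries) or NT (3 libraries) blastocysts, made up the remaining groups, with no cell type given. The labels give no genotype or strain other than the 2 bulls' breeds. NT embryos take their nuclear genome from a fibroblast, and IVF embryos theirs from the Holstein semen and the oocytes. Genotype cannot be told apart from NT or IVF origin, nor from cell type between fibroblasts and oocytes. The p-values measure only the spread between pools or cultures, which may be technical.

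A transfer RNA carries an amino acid to the ribosome and pairs its anticodon with the messenger RNA. Cleavage in the D loop releases a short 5′ tRNA fragment, and cleavage in the anticodon loop, often by angiogenin in stressed cells, releases a longer 5′ fragment, a tiRNA. Fragments of both kinds have been tied to control of translation and of retroelements, and in the mouse a 5′ fragment of a glycine tRNA is carried by sperm and alters gene expression in the early embryo. A fragment's level depends on how much of the tRNA is made, how it is modified and how it is cut, and these steps were not measured here.

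The table gives names and values without nucleotide sequences, so an entry cannot be placed on 1 tRNA gene. Of the 84 members, 27 carry 1 name, 7 carry 2 and 50 carry 3, and tRNA genes with the same first bases share reads. SerTGA also lists the SerAGA tRNA, and GlyCCC-1 also lists GlyGCC, whereas SerGCT and SerCGA list only their own anticodon. For 5 members the names cover more than 1 amino acid, among them ArgTCT-1, which also lists GluTTC.

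Levels are given as normalised reads, the reads recovered from the deposited values and divided by the size factor of the library, as a percentage of all listed reads, or as CPM, with the listed reads of each library scaled to 1000000. Listed reads ran from 25119 to 3081186 per library (median 608571.5), and 41 to 84 members were found in a library. Oocytes carried 88.1% to 91.5% of listed reads on piRNAs, the small RNAs of the germ line. Fibroblast and mesenchymal microRNA markers took 0.628%, 9.18% and 8.30% of listed reads in fibroblasts 1, 3 and 4, and epithelial markers were listed at 0 in fibroblasts 1 and 3 and at 0.000521% in fibroblast 4. The IVF morulae held 2 libraries apart from the rest. IVF morula 1 had 0.143% piRNA reads and 8.45% fibroblast marker reads, against 74.4% to 80.5% piRNA reads in IVF morulae 2 and 4, and IVF morula 3 had the fewest listed reads of all (25119) and 14.7% piRNA reads. Library 2 of the IVF blastocyst-derived cells also stood apart from the other 3 in its epithelial and cumulus marker reads. Every one of the 12345 entries was found in NT 2-cell library 4, and a fragment not listed has no value here. Only 116 entries were found in all 42 libraries, of which 65 were tRNA-derived and 22 were members. The part of these shared entries in the deposited size factors was not tested. Fewer cells of a type and less fragment RNA per cell cannot be told apart in these bulk samples.

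The members' share of listed reads was smallest in oocytes and cleavage embryos and largest in fibroblasts. Oocytes carried 0.520%, 0.504% and 0.588% of listed reads on members (0.537% ± 0.0443, SD, n = 3). Fibroblasts carried 78.9%, 9.77% and 47.2% (45.3% ± 34.6, SD, n = 3), so that the lowest fibroblast library lay above every oocyte library while the fibroblast libraries differed widely among themselves. IVF blastocysts (3.33% ± 0.876, SD, n = 3) and NT blastocysts (3.48% ± 0.987, SD, n = 4) overlapped each other and lay above the oocytes without overlap. IVF blastocyst-derived cells split into libraries 1 and 2, at 14.6% and 17.6%, and libraries 3 and 4, at 0.818% and 1.29%. NT blastocyst-derived cells carried 3.25%, 1.78% and 0.791%. Single libraries set several group means: that of the IVF morulae was 10.9%, and 3.05% without library 3, that of the fibroblasts 28.5% without library 1, and that of the IVF derived cells 5.59% without library 2. Wilson 95% intervals are narrow against these gaps (9.71% to 9.83% for fibroblast 3), and they cover counting error only.

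**Figure D1:**
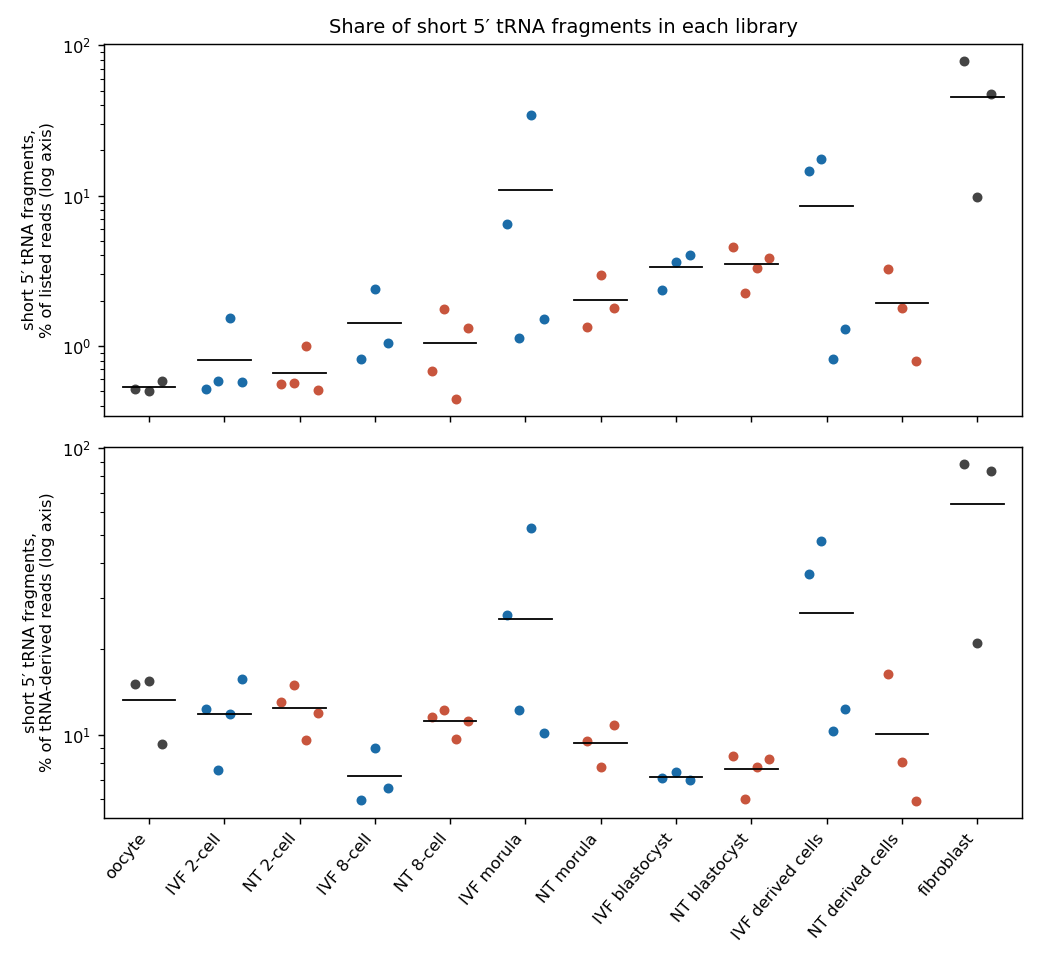
Share of reads on short 5′ tRNA fragments in each of the 42 libraries, as a percentage of listed reads (top) and of tRNA-derived reads (bottom), on log axes; points are libraries (blue IVF, red NT, grey oocyte and fibroblast) and lines are group means. Fibroblasts lie at 9.77% to 78.9% of listed reads, and IVF morula 3, at 34.5%, stands apart from the other IVF morulae.

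Among tRNA-derived reads alone the blastocysts did not lie above the oocytes. Members made up 13.3% of tRNA-derived reads in oocytes on average, against 7.18% and 7.64% in blastocysts from IVF and NT, while fibroblasts 1, 3 and 4 stood at 88.4%, 21.1% and 83.1%. Of the 84 members, 34 had their highest group mean of normalised reads in fibroblasts and 10 in oocytes. Leaving out the IVF morula group, these numbers were 43 and 12.

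Different amino acids led in different groups. Oocyte member reads were mostly lysine (26.2% on average), aspartate (21.7%), valine (16.3%) and glycine (14.7%). Blastocyst member reads were mostly glycine, at 61.1% in IVF and 60.1% in NT embryos. Fibroblast member reads were mostly serine (53.4%), followed by glycine (24.3%) and arginine (7.77%). The single most abundant member was LysCTT-1 or AspGTC-1 in oocytes, GlyCCC-2 in all 7 blastocyst libraries, GlyCCC-1 in all 7 libraries of blastocyst-derived cells and SerTGA in all 3 fibroblast libraries.

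**Figure D2:**
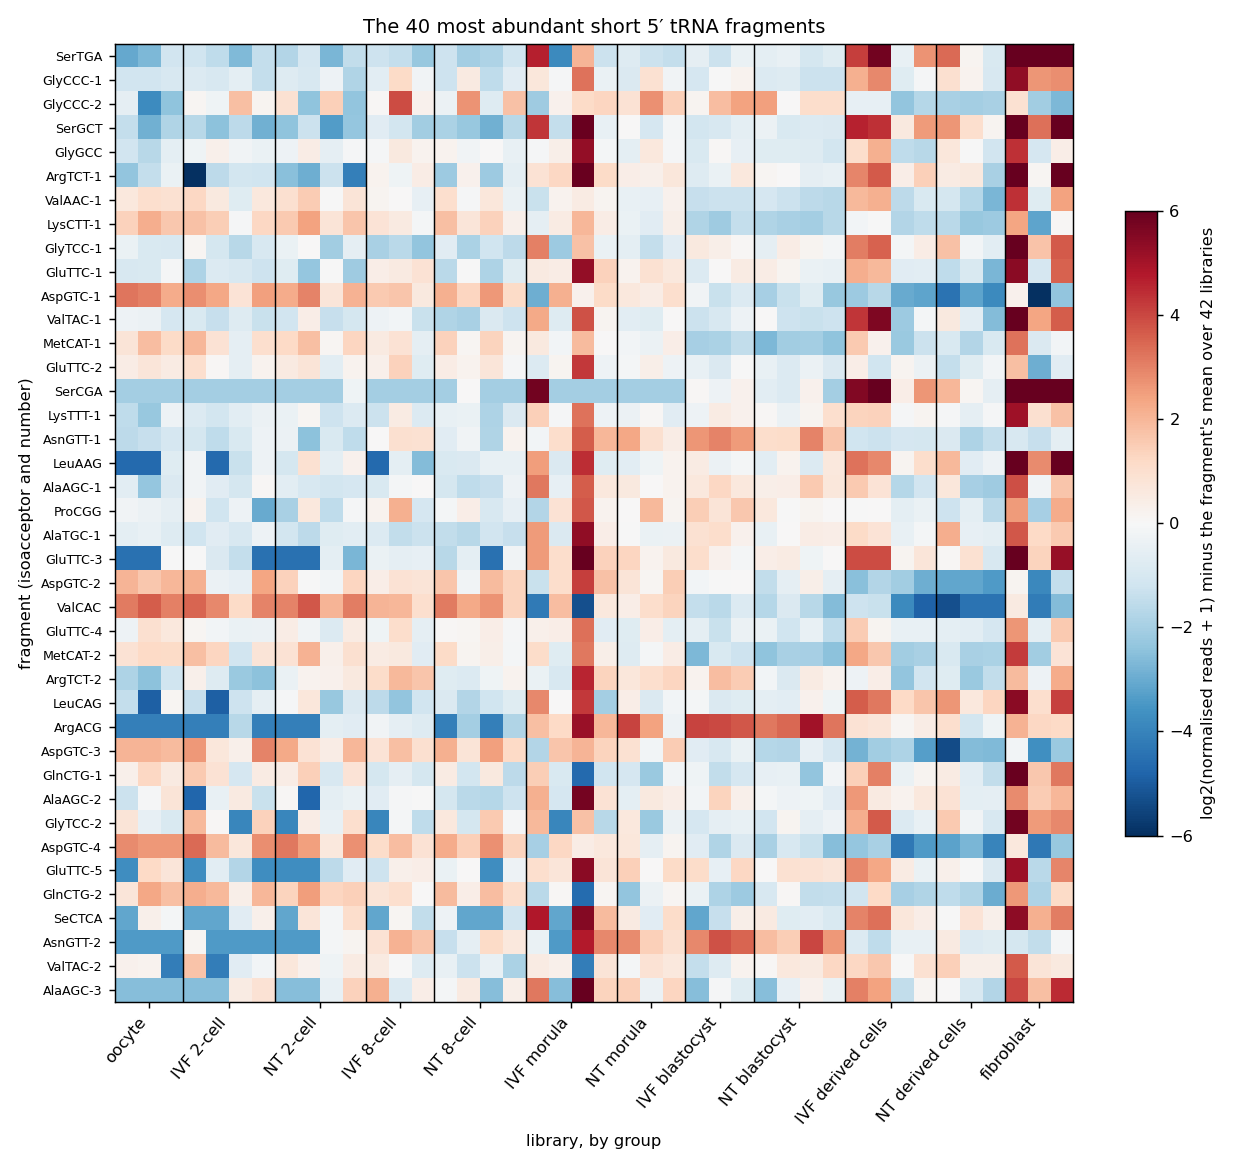
The 40 most abundant short 5′ tRNA fragments (rows) in the 42 libraries (columns, ordered by group and replicate), coloured by log2(normalised reads + 1) minus the fragment's own mean over the libraries, with colours saturating at the ends of the bar. The serine rows are red in all 3 fibroblast libraries, the AsnGTT and ArgACG rows in the blastocysts, and the AspGTC and ValCAC rows in the oocytes; most rows are red in IVF morula 3.

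The serine fragments gave the largest differences between fibroblasts and oocytes. SerTGA, from tRNAs that read the serine codons beginning with UC, was found at 83991, 14686 and 32451 normalised reads in fibroblasts 1, 3 and 4 and at 15.1, 19.6 and 59.8 in oocytes 1, 3 and 4. Every fibroblast library lay far above every oocyte library, by 10.08 on the log2 scale (SE 1.17, limma with Benjamini-Hochberg adjustment, adjusted p = 1.17e-10). SerGCT, from the tRNA for the AGC and AGU codons, stood at 51935, 1476 and 24191 in fibroblasts against 55.4, 19.6 and 42.2 in oocytes (log2 difference 8.22, SE 1.16, limma adjusted p = 1.09e-08). SerCGA stood at 5708, 326 and 1963 in fibroblasts and was found in no oocyte library. Against a floor of 3 reads per oocyte library, averaged over the group, SerCGA was at least 198-fold higher in fibroblasts (limma adjusted p = 4.45e-11). All 3 serine members kept their call when any library of either group was left out.

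In the embryos the serine members were low. SerTGA ranged from 53.9 to 100.1 normalised reads in IVF blastocysts and from 64.3 to 98.2 in NT blastocysts, and serine made up 1.73% and 2.28% of member reads there on average. SerCGA was found in 19 of the 42 libraries, at no more than 3.95 in any blastocyst. The exceptions among embryos were IVF morula 1 (SerTGA 3431, SerGCT 2944, SerCGA 221) and IVF morula 3 (SerTGA 559, SerGCT 9080, SerCGA not found), the libraries that stand apart. IVF morulae 2 and 4 held 8.36 and 53.3 for SerTGA.

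**Figure D3:**
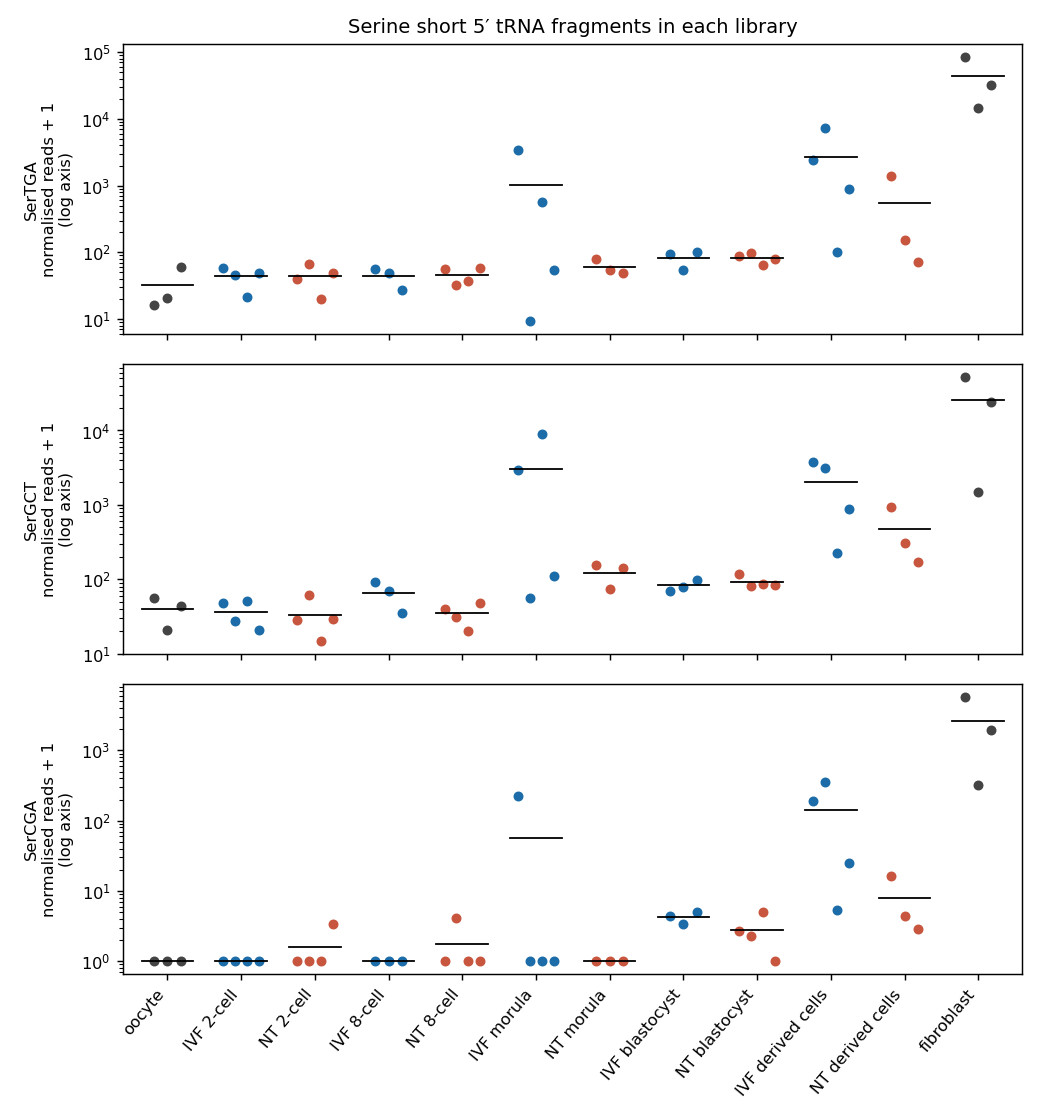
Normalised reads plus 1 (log axes) of the serine members SerTGA, SerGCT and SerCGA in every library; points are libraries (blue IVF, red NT, grey oocyte and fibroblast) and lines are group means. Fibroblasts are the highest group for all 3, the derived cells range over more than 1 power of 10, and a point at 1 is a library without the fragment.

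Over all members, 30 of the 83 tested were higher in fibroblasts than in oocytes, where 1.36% of all 12039 entries tested were higher, and 10 were lower, where 40.4% of all entries were lower (limma, adjusted p under 0.05). The median member difference was 0.94 on the log2 scale against -0.97 over all entries. It was 0.30 without fibroblast 1 and 1.45 without fibroblast 3, and it was 3.09 with voom, 3.23 in CPM, 3.81 with quantile normalisation and 2.15 with median centring. With 20 members too low for a bound left out, the median over the other 63 was 1.88, where 12 of them, at 0 in every library of 1 group, took their bound against the floor. The split moved with the scaling. It was 43 higher and 8 lower with voom on the recovered reads (2.92% and 45.3% of all entries), 45 and 3 in CPM (3.01% and 32.8%), 56 and 2 with quantile normalisation (6.23% and 24.0%) and 36 and 3 with median centring (2.34% and 17.8%). All 30 members called higher were also called higher by voom and in CPM, which both scale by listed reads. Of the 10 called lower, 6 were called lower by voom and 3 in CPM. Leaving out fibroblast 1, 20 of the 30 stayed called higher, and leaving out fibroblast 3 all 30 did.

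By amino acid, the members called higher in fibroblasts were 3 of 3 serine, 3 of 3 leucine, 4 of 5 arginine, 4 of 8 valine, 3 of 6 glutamate, 3 of 9 glycine, 3 of 8 alanine and 2 of 5 glutamine entries, with 1 entry each of cysteine, lysine, methionine, proline and selenocysteine. LeuAAG was found at 1994, 177 and 1635 normalised reads in fibroblasts and at 0, 0 and 14.1 in oocytes (log2 difference 7.39, SE 0.98, limma adjusted p = 2.6e-09). ArgTCT-1, whose names also include a glutamate tRNA, stood at 22563, 175 and 14719 against 30.2, 58.8 and 120 (log2 difference 5.90, SE 1.21, limma adjusted p = 3.24e-05). Fibroblast 3 was the low library for both of these arginine and leucine members, and the groups still did not overlap. GlyCCC-1, the most abundant glycine member, stood at 47949, 7511 and 8182 in fibroblasts against 539, 544 and 612 in oocytes (log2 difference 4.66, SE 1.24, limma adjusted p = 0.00131). GlyGCC, at 18486, 437 and 1144 in fibroblasts and 398, 279 and 594 in oocytes, overlapped between the groups and did not pass the test.

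Aspartate was the main amino acid lower in fibroblasts, with 6 of 10 entries called lower (40.4% of all entries) and none higher (1.36%). AspGTC-1 was found at 289, 2.44 and 46.4 normalised reads in fibroblasts and at 2290, 2019 and 1132 in oocytes (log2 difference -5.23, SE 1.08, limma adjusted p = 3.87e-05). In CPM the fibroblast values of 713, 8.43 and 216 reached into the oocyte range of 645 to 1113, and voom gave an adjusted p of 0.0564. ValCAC, a valine member, was also lower (log2 difference -4.73, SE 0.97, limma adjusted p = 3.03e-05), at 55.3, 1.09 and 5.29 against 337, 480 and 316. AspGTC-4 and AspGTC-3, called lower at -3.92 (SE 0.83) and -3.50 (SE 0.88), had differences of 0.19 and 1.17 with quantile normalisation.

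Asparagine fragments and ArgACG were higher in blastocysts than in oocytes. ArgACG, from an arginine tRNA that reads codons beginning with CG, was found in none of the 3 oocyte libraries, in 1 of 4 IVF 2-cell libraries (4.39 normalised reads), at 13.5, 10.7 and 8.98 in IVF 8-cell embryos and at 283, 266 and 222 in IVF blastocysts. NT blastocysts held 149, 182, 549 and 154. Against the floor in oocytes, ArgACG was at least 19.1-fold higher in IVF blastocysts (limma adjusted p = 1.76e-08) and at least 19.2-fold higher in NT blastocysts (limma adjusted p = 3.38e-09).

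All 3 asparagine members were higher in both kinds of blastocyst. AsnGTT-1 stood at 25.2, 29.4 and 38.7 normalised reads in oocytes. It stood at 493, 622 and 462 in IVF embryos and at 163, 171, 613 and 246 in NT embryos of the blastocyst stage. It was higher by 3.89 on the log2 scale in IVF blastocysts (SE 0.88, limma adjusted p = 0.000261) and by 2.87 in NT blastocysts (SE 0.83, limma adjusted p = 0.00314), with no overlap between blastocysts and oocytes. AsnGTT-2 and AsnGTT-3 were found in no oocyte library, and stood at 76.9, 148 and 115 and at 40.1, 57.4 and 34.1 in IVF blastocysts. Their lower bounds were 8.43-fold and 3.26-fold in IVF blastocysts and 5.48-fold and 2.16-fold in NT blastocysts. ArgACG and the 3 asparagine members stayed called in both comparisons whichever library was left out.

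GlyCCC-2, a glycine fragment with a single name, was the most abundant member of every blastocyst library. Oocytes held 951, 103 and 264 normalised reads. IVF blastocysts held 1592, 4998 and 7479, and NT blastocysts 7822, 1419, 2882 and 2874. It was higher by 3.69 on the log2 scale in IVF blastocysts (SE 1.37, limma adjusted p = 0.0275) and by 3.36 in NT blastocysts (SE 1.28, limma adjusted p = 0.0288). In both comparisons the call was lost without oocyte 3 (limma adjusted p = 0.135 and 0.154) or oocyte 4. It was lost also without IVF blastocyst 3 or 4, and without NT blastocyst 1. GlyCCC-2 varied widely within stages before the blastocyst, from 1474 to 21162 in IVF 8-cell embryos and from 809 to 9019 in NT 8-cell embryos.

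**Figure D4:**
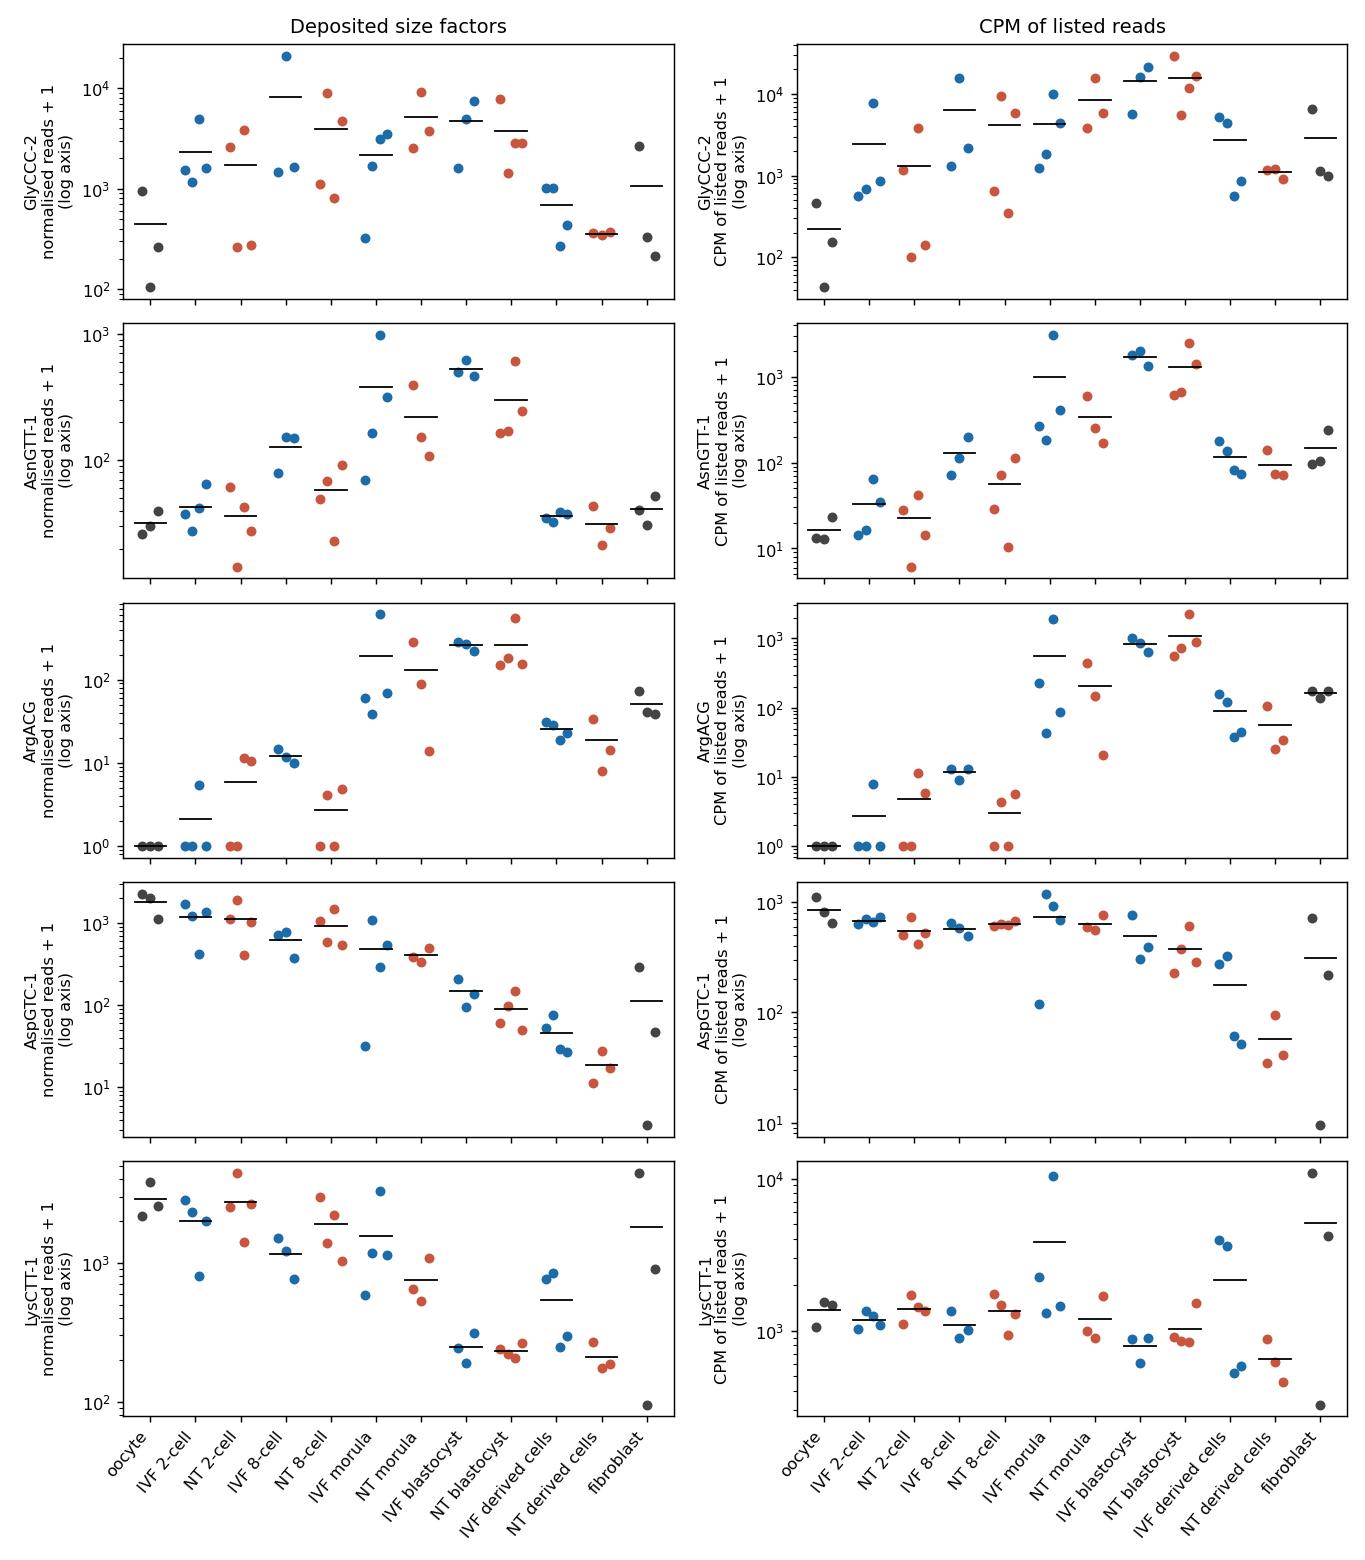
GlyCCC-2, AsnGTT-1, ArgACG, AspGTC-1 and LysCTT-1 in every library, as normalised reads plus 1 (left) and CPM plus 1 (right), on log axes; points are libraries (blue IVF, red NT, grey oocyte and fibroblast) and lines are group means. AsnGTT-1 and ArgACG are above the oocytes in every blastocyst library on both scales, whereas for LysCTT-1 the blastocysts lie below the oocytes on the left and overlap them on the right.

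In IVF blastocysts 11 of 83 members were higher than in oocytes (1.49% of all entries) and 13 lower (33.9%); in NT blastocysts 9 were higher (1.91%) and 14 lower (38.5%). The higher members and the lower ones behaved differently under other scalings. All 11 and all 9 higher members were also called higher by voom and in CPM, which both scale by listed reads. Of the 13 lower members in IVF blastocysts none was called lower by voom or in CPM, and of the 14 in NT blastocysts 1 and 2 were. The IVF split was 24 higher and 0 lower with voom (3.69% and 8.27% of all entries), 24 and 0 in CPM (4.14% and 18.1%), 24 and 0 with quantile normalisation (5.47% and 13.7%) and 16 and 0 with median centring (4.55% and 5.53%). The NT split was 32 and 1 with voom (5.11% and 13.5%), 29 and 2 in CPM (5.57% and 23.0%), 31 and 1 with quantile normalisation (6.63% and 16.4%) and 42 and 1 with median centring (32.2% and 9.49%). The median difference of all entries between IVF blastocysts and oocytes was -0.86 on the log2 scale with the deposited scaling, -0.29 with voom and 0.73 with median centring. The members' median was 0.09 in IVF and 0.00 in NT blastocysts, or 0.14 and -0.20 with absent members at their bounds. Under the other scalings the members' medians were 1.73 and 1.80 with voom, 1.56 and 1.82 in CPM, 1.19 and 1.40 with quantile normalisation and 1.68 and 1.89 with median centring. Leaving out 1 library changed the IVF count of 24 to between 11 (without IVF blastocyst 3) and 24, with 12 without oocyte 3 and 15 without IVF blastocyst 4.

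The members lower in blastocysts were aspartate (5 of 10 entries in IVF, 6 in NT), lysine (2 of 8 in each), methionine (2 of 5 in each) and single entries of other amino acids. Of all entries 33.9% were lower in IVF and 38.5% in NT blastocysts. The lysine count lies below these shares and the methionine count near them. AspGTC-1 stood at 211, 94.9 and 136 normalised reads in IVF blastocysts and at 60.0, 95.8, 149.5 and 49.5 in NT blastocysts, below every oocyte library (log2 difference -3.59, SE 1.08, limma adjusted p = 0.00613 in IVF). LysCTT-1 stood at 2184, 3837 and 2574 in oocytes, at 242, 189 and 309 in blastocysts from IVF and at 238, 218, 206 and 264 in those from NT (log2 difference -3.50, SE 1.18, limma adjusted p = 0.0148 in IVF). In CPM, LysCTT-1 ran from 1061 to 1546 in oocytes and from 838 to 1510 in NT blastocysts, and AspGTC-1 from 645 to 1113 in oocytes and from 307 to 762 in IVF blastocysts, so both overlapped. The voom differences for IVF blastocysts were -0.88 and -0.78, each with an adjusted p of 0.804. ValCAC was among the lower members whose groups stayed apart on both scales, at 164 to 193.5 CPM in oocytes and 37.9 to 59.5 in IVF blastocysts, but its adjusted p was 0.437 with voom.

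The leading members of the other amino acids were spread over these patterns. AlaAGC-1 and GluTTC-1, both called higher in fibroblasts than in oocytes, were highest in fibroblast 1 or IVF morula 3, and the fibroblast and oocyte libraries of GluTTC-1 overlapped (133 to 11329 against 136 to 257). MetCAT-1, from a methionine tRNA, stood at 564, 1181 and 735 normalised reads in oocytes and at 82.5, 89.1 and 118 in IVF blastocysts, and its CPM values overlapped (274 to 476 against 288 to 343). ProCGG ranged from 59.8 to 75.5 in oocytes and from 149 to 268 in IVF blastocysts but did not pass the test. SeCTCA, from the selenocysteine tRNA, stood at 356, 37.4 and 71.5 in fibroblasts against 0, 9.8 and 7.03 in oocytes (log2 difference 3.80, SE 1.00, limma adjusted p = 0.00113). SupCTA, named for a suppressor tRNA, was called lower in fibroblasts and in both kinds of blastocyst, yet its oocyte values of 10.1, 24.5 and 0 lie about the floor of 13.4. CysGCA-1 and IleAAT were found in 35 libraries each, PheGAA and HisGTG in 14 each and ThrTGT in 12, and 6 members, among them GlyTCC-4, were found in under 6 libraries.

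In blastocyst-derived cells of both origins ArgACG and asparagine members were lower than in blastocysts, and in those from IVF the serine members were higher. In IVF material 3 of 83 members were higher in the derived cells (0.930% of all entries) and 4 lower (4.24%). The 3 higher were the serine members. SerGCT stood at 3720, 3168, 223 and 890 normalised reads in the derived cells and at 69.1, 77.4 and 98.3 in the blastocysts (log2 difference 3.86, SE 1.08, limma adjusted p = 0.0174). SerTGA, at 2410, 7397, 99.2 and 875 against 92.5, 53.9 and 100.1, overlapped in library 3 (log2 difference 3.74, SE 1.09, limma adjusted p = 0.0246). All 3 serine calls were lost when any 1 IVF blastocyst library, or derived-cell library 1 or 2, was left out (limma adjusted p up to 0.0931 for SerGCT, 0.191 for SerTGA and 0.209 for SerCGA). Fibroblast and mesenchymal marker reads were at 8.20%, 11.8%, 20.3% and 19.5% of listed reads in derived-cell libraries 1 to 4 and at 0.935% to 1.48% in IVF blastocysts. Library 2, the highest for SerTGA, stood apart in its markers, with 0.00127% epithelial and 0.0442% cumulus marker reads against 0.601% to 1.54% and 3.16% to 4.12% in the other 3. The part of these marker levels in the serine difference was not tested.

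The 4 lower members were ArgACG and the 3 asparagine entries. AsnGTT-1 stood at 34.0, 31.4, 38.3 and 36.9 normalised reads in IVF derived cells, close to its oocyte values on that scale only (log2 difference from IVF blastocysts -3.72, SE 0.83, limma adjusted p = 0.0015). In CPM its mean was 116 in IVF derived cells, against 15.4 in oocytes and 1712 in IVF blastocysts. ArgACG stood at 30.1, 27.4, 17.7 and 21.9 normalised reads (log2 difference -3.18, SE 0.82, limma adjusted p = 0.00741). These 4 stayed called in each fit with 1 library left out. The split was 13 higher and 26 lower with voom (1.59% and 90.6% of all entries), 5 and 6 in CPM (1.29% and 10.8%), 18 and 4 with quantile normalisation (3.31% and 10.1%) and 0 and 4 with median centring (0.540% and 4.48%). A fit of only these 2 groups called 9 higher and 14 lower (9.52% and 58.2% of the entries it tested).

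In NT material no member was higher in the derived cells than in blastocysts (0.988% of all entries) and 3 were lower (1.88%), with 9 at an unadjusted p under 0.05 in either direction. The 3 were ArgACG (log2 difference -3.50, SE 0.82, limma adjusted p = 0.00401), AsnGTT-1 (-2.93, SE 0.83, limma adjusted p = 0.0274) and AsnGTT-3 (-2.45, SE 0.71, limma adjusted p = 0.0362). ArgACG stood at 32.7, 6.89 and 13.2 in NT derived cells, below all 4 NT blastocyst libraries. No call was left without NT derived-cell library 3, and ArgACG alone was left without NT blastocyst 3 or derived-cell library 1 or 4. The split was 0 higher and 14 lower with voom (1.25% and 28.2% of all entries), 1 and 8 in CPM (1.20% and 8.71%) and 7 and 3 with quantile normalisation (2.43% and 7.84%). A fit of only these 2 groups called 7 higher and 15 lower (15.1% and 62.5% of the entries it tested). NT derived cells 1, 3 and 4 held SerTGA at 1403, 152 and 70.6, a range that takes in the NT blastocysts' 64.3 to 98.2, and SerTGA did not pass the test. Whether the serine difference depends on IVF or NT origin was not tested.

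Fibroblasts were compared with NT blastocyst-derived cells, since a fibroblast was the nuclear donor of the NT embryos. Of 83 members, 10 were higher in fibroblasts (0.108% of all entries) and none lower (0.565%), and these 10 were among only 13 entries called higher in the whole table. SerTGA stood at 14686 to 83991 normalised reads in fibroblasts and 70.6 to 1403 in NT derived cells (log2 difference 7.06, SE 1.17, limma adjusted p = 3.93e-05). SerCGA stood at 326 to 5708 against 1.84, 3.44 and 15.5 (log2 difference 7.32, SE 0.97, limma adjusted p = 7.91e-07). SerTGA and SerCGA were called in every fit with 1 library left out, whereas the count of 10 fell to 2 without fibroblast 1 or derived-cell library 4. It was 3 without derived-cell library 3, 4 without fibroblast 4, 6 without derived-cell library 1 and 19 without fibroblast 3.

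The other members higher in fibroblasts than in NT derived cells were SerGCT, ValTAC-1, ArgTCT-1, LeuAAG, GluTTC-1, GluTTC-3, GlnCTG-1 and LysTTT-2. ValTAC-1 stood at 13810, 265 and 644 in fibroblasts against 75.1, 32.6 and 7.34 (log2 difference 5.34, SE 1.10, limma adjusted p = 0.00229), and fibroblast 1 was its high library. SerGCT differed by 5.06 (SE 1.16, limma adjusted p = 0.0101). ArgTCT-1 and GluTTC-1 overlapped between the groups, with fibroblast 3, at 175 and 133, inside the derived-cell range. The split was 11 higher and 1 lower with voom (0.233% and 1.23% of all entries), 5 and 1 in CPM (0.141% and 0.756%) and 8 and 1 with quantile normalisation (0.233% and 0.689%). Fibroblast and mesenchymal markers took 16.6%, 16.7% and 20.8% of listed reads in NT derived cells, above the 0.628% to 9.18% of the fibroblast libraries. Most of the sum in NT derived cells was miR-21, at 135762 to 169919 CPM. From the same list miR-10b was at 281 to 652 CPM in NT derived cells and at 0 to 184 CPM in fibroblasts. The list was not uniform: miR-22 went the other way, at 2054 to 4118 CPM in NT derived cells and 4289 to 7431 CPM in fibroblasts. For miR-143 and miR-145 the 2 groups overlapped. Epithelial markers were at 0.655% to 1.27% in NT derived cells and at or near 0 in fibroblasts. The part of these marker levels in the fragment differences was not tested.

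NT and IVF samples of the same stage did not differ in any member by the adjusted test. No member was called at the 2-cell (2.28% of all entries called in either direction), 8-cell (0.00831%), morula (0%), blastocyst (0.00831%) or derived-cell stage (0%). The members at an unadjusted p under 0.05 numbered 1, 5, 6, 0 and 8 in that order. Voom also called no member at any stage (0%, 0%, 0.0249%, 0.00831% and 0.0665% of all entries), with 0, 3, 21, 3 and 9 at an unadjusted p under 0.05. The smallest adjusted p was at the 2-cell stage, where GlyTCC-4 was 1.11 higher on the log2 scale in NT embryos (limma adjusted p = 0.0917). At the 8-cell stage the leading member was AsnGTT-3, at 4.51, 9.5 and 13.7 normalised reads in IVF and 4.56, 0, 0 and 0 in NT embryos (log2 difference -1.91, limma adjusted p = 0.497).

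At the morula stage the median member difference, NT minus IVF, was -0.34 on the log2 scale against 0.31 over all entries. Without IVF morula 3 these medians were -0.05 and 0.03, and without IVF morulae 1 and 3, the libraries that stand apart, both were 0 and no member was called. With median centring they were 0.85 and 1.51, and with voom -1.53 and -0.87. Leaving out IVF morula 2 gave 4 calls, the most of any single library, and leaving out NT 2-cell library 1 or 3 gave 1 call at the 2-cell stage. The shares of all entries called in these fits are not given here. In blastocysts the median member difference was -0.12, and in derived cells it was -0.56, with 12 of 83 members above 0. With absent members at their bounds the morula, blastocyst and derived-cell medians were -0.50, -0.21 and -0.85. SerCGA was found in IVF morula 1, in no other IVF morula and in no NT morula. Its bound against the floor, at least 15.5-fold lower in NT morulae, rests on that library, which stands apart. In derived cells the largest fitted difference was that of SerCGA (-2.74, SE 0.91, limma adjusted p = 1), at 192, 349, 4.35 and 24.2 in IVF and 15.5, 3.44 and 1.84 in NT. IVF derived-cell libraries 1 and 2 were the high ones there, as for SerTGA and SerGCT.

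Short fragments and 5′ tiRNAs with the same first-named tRNA changed in different ways. An entry was counted under its first name only, so reads shared with other tRNAs were not divided. GlyCCC-1 also lists GlyGCC, ValAAC-1 also lists ValCAC and ArgTCT-1 also lists GluTTC. How this assignment affects the percentages was not tested. Both forms were listed for 25 tRNAs. Among those with at least 20 reads, short fragments outnumbered tiRNAs for 9 of 12, 10 of 14 and 9 of 17 tRNAs in oocytes 1, 3 and 4. In IVF blastocysts this held for 4 of 22, 4 of 23 and 5 of 24, and in NT blastocysts for 3 of 23, 5 of 24, 4 of 23 and 3 of 23. In fibroblasts it held for 23 of 23, 16 of 22 and 23 of 25. For most tRNAs the tiRNAs prevailed in blastocysts and the short form in fibroblasts.

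SerGCT and ArgTCT were almost all short in every group, whereas SerTGA was 76.3% short in IVF and 73.8% in NT 8-cell embryos and SerCGA, with 14 short and 18 tiRNA reads there, 45.6% in IVF blastocysts. SerGCT reads were 100% short in oocytes, 97.5% in blastocysts from IVF and 99.1% in those from NT, and ArgTCT reads 100%, 98.4% and 97.2%. Some lysine and valine tRNAs had few short reads in blastocysts. LysCTT reads were 86.9% short in oocytes, 6.51% and 5.23% in blastocysts from IVF and NT and 63.3% in fibroblasts. ValAAC went from 85.1% in oocytes to 2.28% and 3.67% in IVF and NT blastocysts and stood at 89.1% in fibroblasts. AspGTC stayed mostly short to the 8-cell stage (91.9% in IVF) and was 55.2% short in IVF and 29.7% in NT blastocysts. GlyGCC and LysTTT were mostly tiRNAs in oocytes (13.6% and 16.5% short) and blastocysts, and mostly short in fibroblasts (61.9% and 62.1%).

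**Figure D5:**
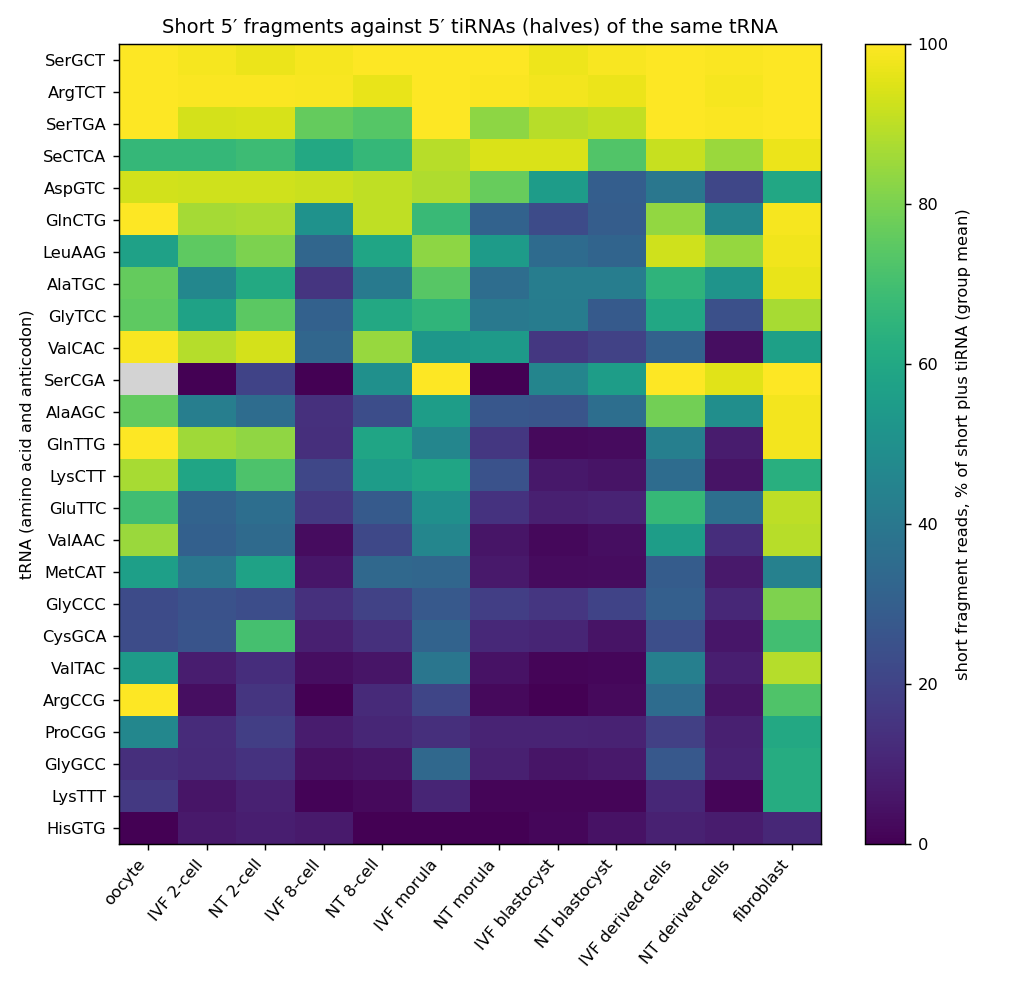
Reads of the short 5′ fragment as a percentage of short fragment plus 5′ tiRNA reads, as group means, for the 25 tRNAs with both forms. Entries are assigned by their first-named tRNA. Grey is a group with neither form. LysCTT falls from 86.9% in oocytes to 6.51% in IVF blastocysts while SerGCT and ArgTCT stay at 96.7% or above, and fibroblasts are bright in most rows.

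Other tRNA-derived classes gave other counts in the same fit. Of 47 tested 5′ tiRNAs without an Ensembl-numbered name, 34 were higher in IVF blastocysts than in oocytes (1.49% of all entries) and 32 in NT blastocysts (1.91%). None was lower (33.9% and 38.5%). In fibroblasts against oocytes 6 of them were higher (1.36%) and none lower (40.4%). Of 16 tiRNAs with such a name, 1 was higher and 1 lower in IVF blastocysts, and 2 and 2 in NT blastocysts. In fibroblasts 0 of these 16 were higher and 7 lower. Of 103 fragments from the CCA-bearing 3′ end, 13 were higher and 12 lower in fibroblasts than in oocytes (1.36% and 40.4% of all entries). Of 308 fragments cut from the trailer of the precursor tRNA, 4 were higher and 166 lower, against the same shares of all entries. In the comparison of IVF derived cells with blastocysts 10 of the 47 tiRNAs were lower (4.24% of all entries) and none higher (0.930%).

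The entries whose profiles over the 42 libraries were most like SerTGA were SerCGA (Pearson r = 0.95), SerGCT (0.93) and GlyTCC-1 (0.92), all members, out of 9905 entries compared. For GlyCCC-1 they were ValTAC-1 (0.89), SerGCT (0.86) and LysTTT-1 (0.83). These values describe libraries that share size factors and cell types. For GlyCCC-1, IVF morula 3, at 11392 normalised reads, lay within the range of the fibroblasts.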

How the data were processed

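The authors deposited log2 values from DESeq2's variance-stabilising transformation, per the submitters' processing notes, which also name Trim Galore and the bosTau8 (UMD3.1) genome; no version of these is given in the sources used here. Inverting the transformation returned whole reads for 100% of 188126 values (tolerance 0.01), taking the smallest value of a library as 2 reads. Listed reads are not a library's full depth. limma 3.58.1 in R 4.3.3 was fitted on the deposited log2 values of all 12 groups, with a trended prior and Benjamini-Hochberg adjustment over 12039 entries, those that exceeded the table's minimum by 1 or more in 3 or more libraries. The fit had 30 residual degrees of freedom, and a member was called at an adjusted p under 0.05. A count model by voom on the recovered reads called 51 members between fibroblasts and oocytes. Pairs of comparisons share control samples: the oocytes serve 3 of them. A fragment at 0 in a group was set against a floor of 3 reads per library, averaged over the group.

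The 3 serine members, the 8 members with the highest mean over the 12 groups, the leading member of each amino acid and up to 4 called members in each direction of each comparison were the ones to be named; other names were chosen after their values were seen. Members and lists were chosen with earlier results of these data known. The rule for tiRNAs named another tag than the table uses, and the table's own tag for 5′ fragments of that kind was taken. Profiles were compared by Pearson correlation over entries found in at least 6 libraries. Marker lists were bovine microRNAs matched by name, and miR-200a, miR-200b and miR-429 of the epithelial list and miR-450 of the cumulus list matched no entry. In IVF derived cells miR-21 had a median of 113908 CPM, against 156558 for the whole fibroblast and mesenchymal list. Cumulus and granulosa markers took 0.00258%, 1.96% and 0.0723% of listed reads in the fibroblasts. Scripts used Python 3.11.15 with numpy 2.4.6, pandas 2.3.3, scipy 1.17.1 and matplotlib 3.10.9, and the fit was tested on simulated data. Alternatives were other filters, scalings and fits, and leaving out each library. CPM of listed reads, as log2(value + 1), was added after the shares had been seen. Genome positions and sequences are not given because the entries carry neither.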

Additional observations from a re-analysis of the deposited data

Results flagged for a closer look

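In 12 of 66 tests on groups of 4 libraries, 1 library lay further from the other 3 than Dixon's 95% limit allows. Each test took 1 share or 1 member in 1 group, so the tests within a group overlap. The values were not put on a log scale. A fragment found in only 1 of 4 libraries passes the limit whatever its level, as SerCGA did in IVF morulae. For these reasons the number of flags cannot be set against a chance rate. No difference between the effects in 2 groups was tested.

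Of the 12 flagged tests, 6 were in IVF morulae. Library 3 carried 34.5% of listed reads on members, against 1.12% to 6.52% in the others. It also stood apart for GlyCCC-1 (11392 normalised reads against 906 to 1882), GlyGCC (34074 against 810 to 1120) and ArgTCT-1 (9652 against 292 to 380). IVF morula 1 stood apart for SerTGA (3431 against 8.36 to 559) and SerCGA (221 against 0 in the others). IVF morula 3 has the fewest listed reads of all libraries, 25119. IVF morula 1 has fibroblast marker reads of 8.45% against 0.247% to 0.483% in the others, cumulus and granulosa marker reads of 2.45% against 0% to 0.0845%, and epithelial marker reads of 0.916% against 0% to 0.0829%. All embryos, from IVF and NT alike, were cultured on cumulus cells. Within the cumulus list miR-424 and miR-503 reached 14719 and 9791 CPM among the IVF morulae. Its miR-202 reached only 87.9 CPM there, against 140 to 763 CPM in oocytes, and miR-450 matched no entry. The part of these marker levels in the serine fragments of IVF morula 1 was not tested.

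At the 2-cell stage library 3 of each kind carried the most member reads, 1.53% in IVF (others 0.521% to 0.589%) and 0.998% in NT (others 0.508% to 0.571%). GlyCCC-2 was at 4975 normalised reads in that IVF library, against 1171 to 1591. SerCGA was found in 1 of 4 NT 2-cell libraries (library 4, 2.39) and 1 of 4 NT 8-cell libraries (library 2, 3.12), both at or near the floor. SerGCT stood at 116 in NT blastocyst 1 against 79.0 to 84.6 in the other 3.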

How the results depend on the processing

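The counts of members called kept within 1.5 times under no filter, a stricter filter and a replicate block. The replicate block, a term for the shared replicate number, left all 11 counts and all 38 named results on the same side of the threshold; in no comparison did every same-numbered pair of libraries deviate together with a correlation above 0.1 (range -0.14 to 0.47), so the numbers were not taken as pairs. Median centring gave 4 calls at the morula stage, all higher in NT, where the median over all entries was 1.51 against 0.85 for members. The share of all entries called there is not given here. It gave 43 for NT blastocyst against oocyte, 42 higher and 1 lower (32.2% and 9.49% of all entries). For IVF derived cells against blastocysts it gave 0 higher and 4 lower (0.540% and 4.48%). For IVF derived cells against blastocysts the count of 7 became 22 with quantile normalisation, 39 with voom, 11 in CPM of listed reads and 23 in a fit of only the 2 groups. For NT derived cells against blastocysts the count of 3 became 10, 14, 9 and 22 in the same order. For fibroblasts against NT derived cells 10 became 6 in CPM. The cause was not tested. AspGTC-4 and AspGTC-3 reversed between fibroblasts and oocytes with quantile normalisation (0.19 and 1.17, from -3.92 and -3.50). Of the 38 named results, 18 lost their call with quantile normalisation, these 2 included, 13 in CPM, 11 with median centring, 10 with voom and 1 in the fit of 2 groups.

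Leaving out 1 library gave 0 to 1 calls at the 2-cell stage, 0 to 0 at the 8-cell, blastocyst and derived-cell stages, 0 to 4 at the morula stage, 31 to 44 for fibroblast against oocyte, 11 to 24 and 16 to 22 for IVF and NT blastocyst against oocyte, 4 to 8 and 0 to 3 for IVF and NT derived cells against blastocysts and 2 to 19 for fibroblast against NT derived cells. No share of all entries called is given for the fits with a library left out. As a share of tRNA-derived reads in place of listed reads, members made up 13.3% in oocytes, 11.9% and 12.4% in IVF and NT 2-cell embryos, 7.19% and 11.2% at the 8-cell stage, 9.39% in NT morulae, 7.18% and 7.64% in blastocysts and 26.7% and 10.1% in derived cells. The floor of 3 reads per library was 13.4 normalised reads in oocytes and 0.928 in fibroblasts, so an absence in oocytes is the weaker statement.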
